A study of Mus musculus with 6 samples.

Results

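The mRNAs of 58 genes for histone-modifying enzymes, their partner subunits and chromatin remodellers were followed through an RNA immunoprecipitation of IGF2BP1 in mouse germ stem cells. The members were taken by symbol from the deposited expression table. By role they comprise 16 histone methyltransferases and subunits of their complexes, 10 Polycomb genes, 8 histone demethylases, 14 chromatin remodellers, and 10 genes of acetylase or deacetylase complexes. Each of the 58 symbols had a single line among the 22564 protein-coding genes of the table, and all 58 were among the 12053 genes that passed the filter on low counts.

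Histone methyltransferases of the KMT2 and SETD1 families mark active promoters and enhancers, while Polycomb complexes compact and silence developmental genes and demethylases take such marks away. Remodellers use ATP to slide or evict nucleosomes, acetylases loosen chromatin at active genes, and the SIN3 and NuRD complexes carry deacetylases to genes that are to be silenced. IGF2BP1 is a cytoplasmic RNA-binding protein known for holding on to target mRNAs and prolonging their life, and in the male germ line chromatin enzymes are known for keeping stem cell, somatic and meiotic programmes apart.

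The study sequenced RNA from a line described as cultured mouse germ stem cells, grown in a mixture of MEM-α and StemPro-34 media with GDNF and FGF2 (10 ng/ml each). Its 6 libraries, read as 150 bp paired ends, form 3 groups of 2: IGF2BP1 RIP (precipitated with an antibody to that protein), IgG RIP (precipitated with control IgG), and input (not precipitated). The labels name no strain, age, allele or passage, and state neither separate cultures nor a batch. Any p-value thus reflects no more than library-to-library spread, which may be technical.

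Depth on protein-coding genes was 2793425 and 2836942 fragments after IGF2BP1 precipitation, 2558673 and 2723451 with IgG, and 1639251 and 1693165 in input. The members held between 21 and 3652 fragments per library, with a median of 436. The IgG libraries stood apart from the rest: the biological coefficient of variation, the spread between libraries beyond counting noise, was 7.76% between the IGF2BP1 libraries, 50.4% between the IgG libraries and 6.76% between the input libraries. Igf2bp1 itself was not called in any comparison, at 455 and 422 CPM with the IGF2BP1 antibody, 395 and 450.1 CPM with IgG and 369.6 and 355 CPM in input. Summed germ stem cell markers (16 of 16 in the table, none at 0 in every library) came to 4111 to 4196 CPM in IGF2BP1 RIP, to 3682 to 3734 CPM in IgG RIP and to 3916 to 4028 CPM in input. The 12 fibroblast markers summed to 4337 to 4526 CPM in IGF2BP1 RIP, to 4187 to 4701 CPM in IgG RIP and to 4155 to 4276 CPM in input. The 10 macrophage markers summed to 3408 to 3545 CPM in IGF2BP1 RIP, to 3068 to 3545 CPM in IgG RIP and to 3635 to 3663 CPM in input. Lyz2 alone made up most of every such sum, ranging from 2452 CPM (IgG replicate 1) to 3137 CPM (input replicate 1). Cd68 came next and peaked at 339 CPM (IGF2BP1 replicate 1), while Csf1r, Ptprc and Tyrobp stayed at or below 46.0 CPM. Of 9 Sertoli and Leydig cell markers, which summed to 57.0 CPM or less, Amh and Cyp17a1 were at 0 in all libraries. The part of these other cells in the results was not tested, and in such bulk RNA fewer cells of a type and less RNA per cell cannot be told apart.

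Setting IGF2BP1 RIP beside input asks which mRNAs take a larger share of the precipitate than of the starting RNA. Setting it beside IgG RIP asks which do so with this antibody beyond a non-specific one. Over input, 43 of the 58 chromatin genes had a positive log2 fold change in IGF2BP1 RIP and 45 had one in IgG RIP, while between the precipitates 23 were positive and 35 negative. Of all genes tested, 50.2%, 49.8% and 49.2% were positive in these 3 comparisons. Levels are given as CPM, fragments scaled to library size by TMM, and differences as log2 fold changes with their SE from edgeR's quasi-likelihood fit on 2 libraries per group. Calls require an adjusted p (Benjamini-Hochberg over all 12053 genes) under 0.05. In IGF2BP1 RIP against input, 14 of 58 members were higher and 2 lower, against a background of 2.21% higher and 3.76% lower among all genes tested. The median log2 fold change of the members was 0.29. In IgG RIP against input, 20 members were higher and 0 lower by edgeR, against 4.19% and 4.90% of all genes, with a median of 0.35. At an unadjusted p under 0.05, 4 were lower, against 13.7% of all genes, and DESeq2 and voom called 0 lower. With the IGF2BP1 antibody against IgG, 3 members were higher and 7 lower, against 3.29% and 3.78% of all genes, with a median of -0.06 beside -0.01 for all genes. The comparisons share libraries, so their counts are set side by side only.

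**Figure D1:**
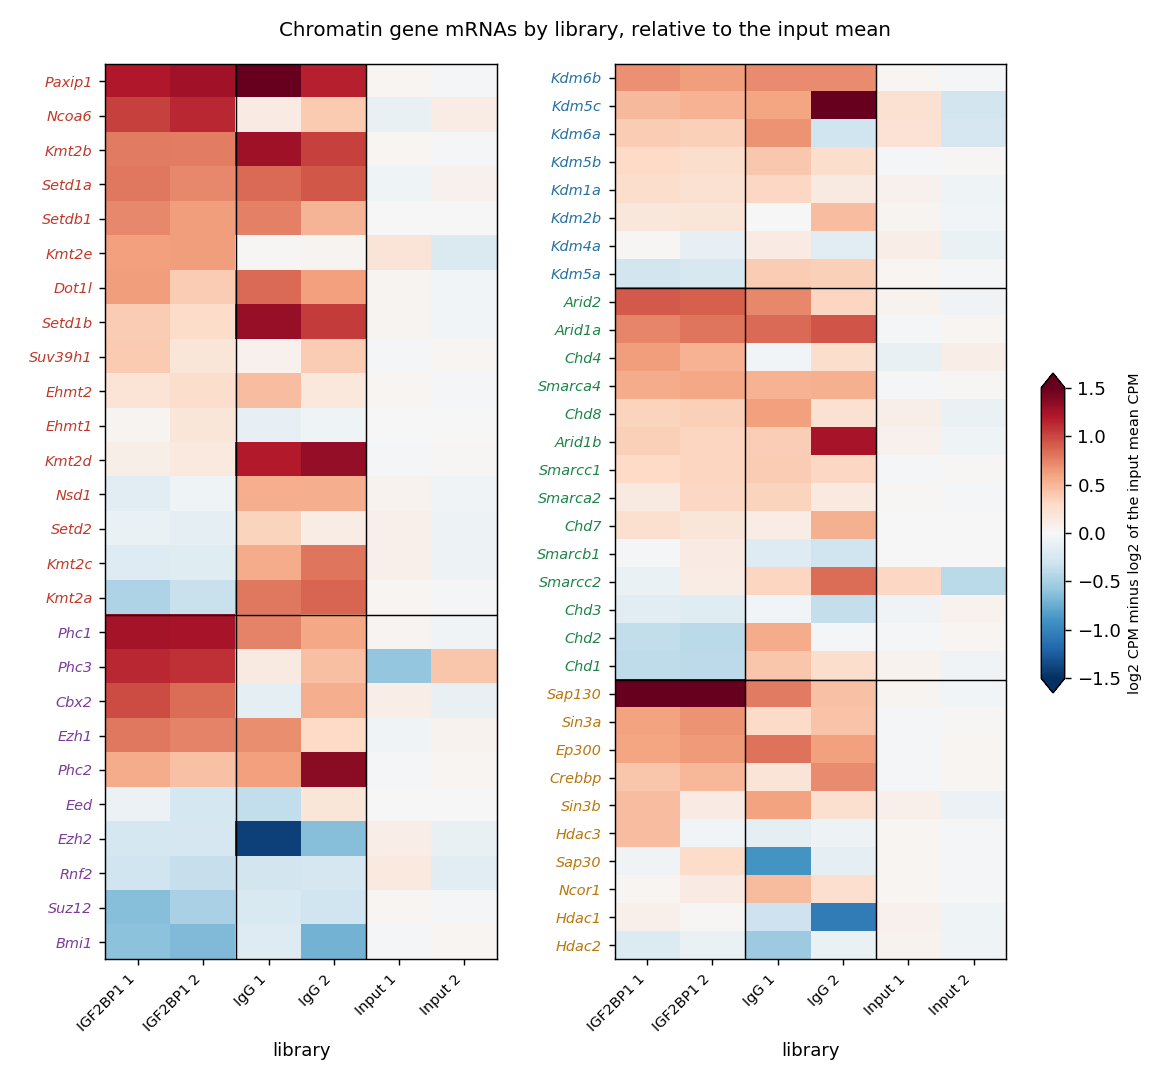
Level of each of the 58 members in each library, as log2 CPM minus the log2 of its mean CPM in input (colour, limited to 1.5 either way), with IGF2BP1 RIP, IgG RIP and input libraries from left to right and gene names coloured by role group (left panel methyltransferases and Polycomb, right panel demethylases, remodellers and acetylation genes). Sap130, Phc1 and Ncoa6 are highest in both IGF2BP1 RIP libraries, while Kmt2a and Kmt2d are highest in both IgG RIP libraries.

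All 14 members higher in IGF2BP1 RIP than in input also passed with those 2 groups alone in the model, without either IgG library. There 29 members were higher and 8 lower, against 16.1% and 17.8% of all genes. By library values alone, 37 members lay above and 14 below input in IGF2BP1 RIP without overlap, against 33.5% and 33.4% of all genes. In IgG RIP the same count was 38 above and 10 below, against 25.3% and 28.5%. With IgG RIP and input alone, 10 of the 20 higher members remained called, where 0.888% of all genes were higher and 0.946% lower. The 10 that did not were Paxip1, Setdb1, Nsd1, Dot1l, Phc1, Phc2, Kdm5a, Smarcc1, Sin3a and Sap130, with adjusted p-values between 0.0504 and 0.117. Without input replicate 1 or replicate 2, edgeR called 0 members against input in either comparison. All genes were then called at 0.0155% and 0.00773% higher and 0.124% and 0.162% lower in IGF2BP1 RIP, and at 0% in IgG RIP. At an unadjusted p under 0.05, 19 members were higher in IGF2BP1 RIP both times, against 4.73% and 4.74% of all genes. In IgG RIP, 23 and 21 members were higher by that measure, against 6.23% and 6.16%. Without replicate 1 or replicate 2 of IGF2BP1 RIP, 2 members were higher than input in that group, against 0.0388% and 0.0309% of all genes, and 0 were lower (3 and 2 at an unadjusted p under 0.05), against 0.225% and 0.286%. Against IgG RIP, 0 were then higher by edgeR, against 0.0854% and 0.0774% of all genes, and 2 lower each time, against 0.303% and 0.371%. At an unadjusted p under 0.05, 6 and 5 were higher, against 5.75% and 5.62%. Against IgG RIP, 17 members lay above and 20 below without overlap, against 27.4% and 24.7% of all genes. With both precipitates alone in the edgeR model, 0 members were higher and 5 were lower, against 0.315% and 0.880% of all genes. At an unadjusted p under 0.05, 7 were higher, against 8.52%. A lone library is assumed in these fits to vary like the other groups. With 1 IgG library left out, 11 members were higher and 19 lower than IgG RIP without replicate 1 (24.5% and 22.3% of all genes), and 13 and 18 without replicate 2 (22.7% and 21.5%). IGF2BP1 RIP had 30 higher than input both times, with 8 and 7 lower (15.5% and 16.4% of all genes, then 15.2% and 16.0%). Over input, IgG RIP had 33 higher and 5 lower without replicate 1 (21.1% and 24.8%), and 35 and 3 without replicate 2 (19.7% and 22.8%). A voom fit that weights each group by its own spread called 4 members higher and 7 lower than IgG RIP (1.88% and 4.20% of all genes). Over input it called 29 higher and 8 lower in IGF2BP1 RIP (16.2% and 18.2%), and 23 higher and 0 lower in IgG RIP (4.50% and 3.30%).

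**Figure D2:**
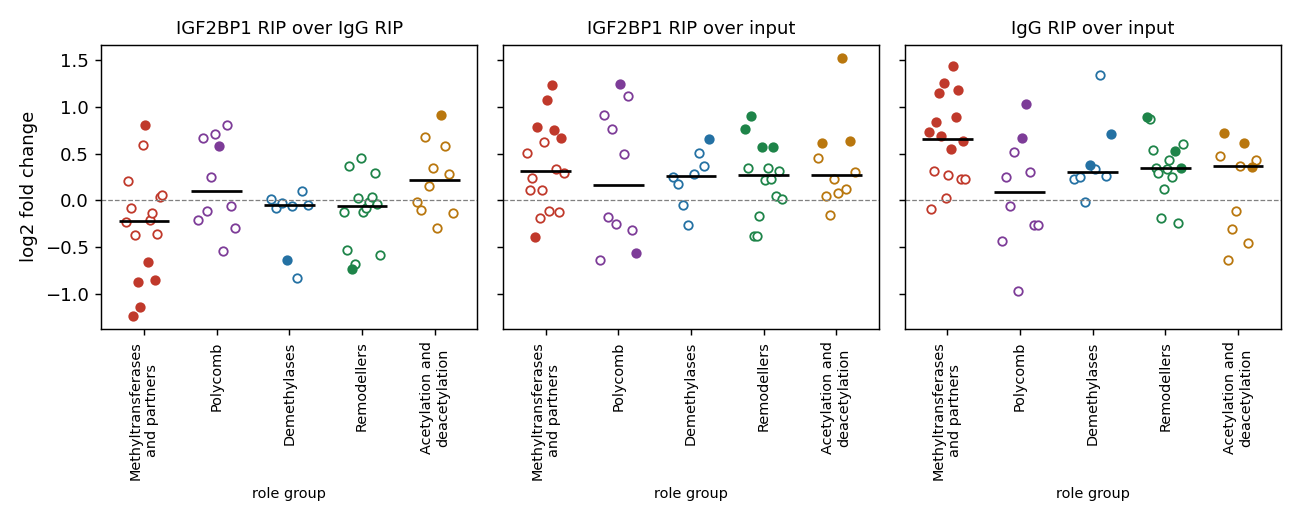
Log2 fold change of every member by role group, in IGF2BP1 RIP over IgG RIP, IGF2BP1 RIP over input and IgG RIP over input (filled points passed the edgeR test at an adjusted p under 0.05, open points did not, bars are medians of the role group). Methyltransferases hold 5 of the 7 members called lower than IgG RIP and 10 of the 20 called higher in IgG RIP than in input. These are 31.25% and 62.5% of the role group, against 3.78% and 4.19% of all genes and 11.2% and 17.7% of genes of like length and level.

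Among the 16 methyltransferases and their partners, 5 were lower and 1 higher with the IGF2BP1 antibody than with IgG (median log2 fold change -0.22), 5 were higher and 1 lower with it than in input (median 0.31), and 10 were higher in IgG RIP than in input (median 0.66). Over input in IGF2BP1 RIP, 31.25% were thus higher and 6.25% lower, against 8.28% and 8.38% of genes of like length and level. Over IgG RIP 6.25% were higher, against 4.86% of like genes. Kmt2a (ENSMUSG00000002028, chromosome 9, 44803355 to 44881296 on GRCm38) encodes MLL1, the methyltransferase known for keeping Hox genes active. It stood at 413 and 449 CPM with the IGF2BP1 antibody, 983 and 1039.6 CPM with IgG and 579.8 and 554 CPM in the input libraries. Both IgG libraries were far above all others and both IGF2BP1 libraries were the lowest. Its log2 fold change in IGF2BP1 RIP was -1.23 ± 0.08 over IgG RIP (edgeR adjusted p = 5.58e-04) and -0.40 ± 0.08 over input (adjusted p = 0.0350). That of IgG RIP over input was 0.84 ± 0.08 (adjusted p = 0.00361). Over IgG RIP it was -1.26 without IgG replicate 1 and -1.18 without IgG replicate 2.

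Kmt2d (ENSMUSG00000048154, chromosome 15, 98831669 to 98871204) and Kmt2c (ENSMUSG00000038056, chromosome 5, 25271794 to 25498783) encode the related methyltransferases that mark enhancers. Kmt2d stood at 463 and 484 CPM after IGF2BP1 precipitation, against 997 and 1094 CPM after IgG precipitation and 433 and 441 CPM before either. Kmt2c stood at 609.6 and 610.2 CPM in the IGF2BP1 libraries, against 1021 and 1209 CPM in the IgG libraries and 731 and 657 CPM in input. For both genes the IgG libraries lay above all others, and for Kmt2c the IGF2BP1 libraries also lay below input. Kmt2d was lower with the IGF2BP1 antibody than in IgG RIP by a log2 fold change of -1.14 ± 0.08 and Kmt2c by one of -0.87 ± 0.10 (edgeR adjusted p = 7.40e-04 and 0.00494). Against input, neither passed in IGF2BP1 RIP, at 0.11 ± 0.08 for Kmt2d and -0.19 ± 0.10 for Kmt2c (adjusted p = 0.505 and 0.361). Both were higher in IgG RIP than in input, by 1.26 ± 0.08 and 0.68 ± 0.10 (adjusted p = 0.00140 and 0.0109). Setd1b (ENSMUSG00000038384, chromosome 5, 123047373 to 123250131), a catalytic subunit of a SET1-type promoter complex, shares its locus span with another gene in the table. It stood at 95.0 and 88.3 CPM with the IGF2BP1 antibody, 179.7 and 151 CPM with IgG and 75.0 and 70.5 CPM in the input libraries. Its IgG libraries were again the highest, and it was lower with the IGF2BP1 antibody than with IgG, at a log2 fold change of -0.85 ± 0.15 (adjusted p = 0.0206). With both precipitates alone in the model that adjusted p was 0.0838. Setd1b was higher in IgG RIP than in input by 1.18 ± 0.15 (adjusted p = 0.00802). In IGF2BP1 RIP over input it was 0.33 ± 0.16 (adjusted p = 0.290). Nsd1, a methyltransferase of gene bodies picked out after its values were seen because it completes the 5, was at -0.66 ± 0.09 over IgG RIP (adjusted p = 0.00771).

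Kmt2b (ENSMUSG00000006307, chromosome 7, 30568855 to 30588726), the MLL2 methyltransferase of promoters, stood at 253 and 251 CPM after IGF2BP1 precipitation, against 353 and 299 CPM after IgG precipitation and 149 and 144 CPM before either. Its 3 groups did not overlap, with IgG RIP highest and input lowest. Kmt2b was higher than input in IGF2BP1 RIP by 0.78 ± 0.12 (adjusted p = 0.0121) and in IgG RIP by 1.15 ± 0.12 (adjusted p = 0.00379). At -0.37 ± 0.11 (adjusted p = 0.0873) over IgG RIP it did not pass. Paxip1 (ENSMUSG00000002221, chromosome 5, 27740667 to 27791339), the PTIP subunit of the KMT2C and KMT2D complexes, stood at 91.8 and 96.0 CPM in the IGF2BP1 libraries, against 126 and 90.1 CPM in the IgG libraries and 40.9 and 39.1 CPM in input. The precipitates overlapped and both lay above input. The difference from input was 1.23 ± 0.21 (adjusted p = 0.0203) for IGF2BP1 RIP and 1.44 ± 0.21 (adjusted p = 0.0110) for IgG RIP. Over IgG RIP, Paxip1 was at -0.21 ± 0.20 (adjusted p = 0.571), and it was 0.07 without IgG replicate 1 and -0.42 without IgG replicate 2. Ncoa6 (ENSMUSG00000038369, chromosome 2, 155390656 to 155473894), a nuclear receptor coactivator that joins the same complexes, ran the other way, at 331 and 356 CPM with the IGF2BP1 antibody, 178 and 214 CPM with IgG and 150.1 and 175 CPM in the input libraries. Both IGF2BP1 libraries lay above all others, and IgG RIP lay only just above input. Ncoa6 was higher in IGF2BP1 RIP than in IgG RIP by 0.81 ± 0.13 (adjusted p = 0.0159) and than in input by 1.08 ± 0.13 (adjusted p = 0.00633). For Ncoa6, IgG RIP over input was 0.27 ± 0.13 (adjusted p = 0.257). With IGF2BP1 RIP and IgG RIP alone in the model its adjusted p was 0.0634.

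The remaining higher methyltransferases, named here after their values were seen, were Setd1a and Setdb1 in both precipitates over input and Dot1l and Nsd1 in IgG RIP over input. Setd1a, the other SET1-type enzyme, was 0.75 ± 0.09 (adjusted p = 0.00558) in IGF2BP1 RIP and 0.89 ± 0.09 (adjusted p = 0.00379) in IgG RIP over input. Setd1a and Setdb1 each share their locus span with another gene. Setdb1, which silences retroelements, was 0.67 ± 0.13 (adjusted p = 0.0249) and 0.63 ± 0.13 (adjusted p = 0.0251) in the same comparisons. The 5 members of the group called in no comparison had log2 fold changes between -0.35 and 0.59 over IgG RIP and between -0.13 and 0.62 over input in IGF2BP1 RIP. IgG RIP over input spanned -0.09 to 0.32 in them.

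Of the 10 Polycomb genes, Phc1 was higher in IGF2BP1 RIP than in both IgG RIP and input, Suz12 was lower than input, and Phc1 and Phc2 were higher in IgG RIP than in input. Called higher were thus 10% over IgG RIP and 10% over input in IGF2BP1 RIP. Genes of like length and level had 5.64% and 3.66%. Lower than input in IGF2BP1 RIP were 10%, against 9.41% of like genes. Higher in IgG RIP than in input were 20%, against 6.80%. Phc1 (ENSMUSG00000040669, chromosome 6, 122317731 to 122340561) encodes a polyhomeotic subunit through which Polycomb repressive complex 1 clusters on chromatin. It stood at 383 and 379.6 CPM after IGF2BP1 precipitation, against 269 and 241 CPM after IgG precipitation and 166 and 156 CPM before either. The groups were fully separated, with both IGF2BP1 libraries at the top and input at the bottom. Phc1 was higher in IGF2BP1 RIP by 0.58 ± 0.10 (adjusted p = 0.0196) over IgG RIP and 1.24 ± 0.10 (adjusted p = 0.00197) over input. For Phc1, IgG RIP over input was 0.66 ± 0.10 (adjusted p = 0.0126). Over IgG RIP it was 0.67 without IgG replicate 1 and 0.51 without IgG replicate 2, and with those 2 groups alone its adjusted p was 0.0838. Phc2 (ENSMUSG00000028796, chromosome 4, 128654702 to 128752881), its paralogue, stood at 131 and 121 CPM in the IGF2BP1 libraries, against 137 and 229 CPM in the IgG libraries and 87.4 and 91.2 CPM in input. IgG replicate 2 was far above the other libraries. IgG RIP of Phc2 over input was 1.03 ± 0.24 (adjusted p = 0.0405). It was 0.61 without IgG replicate 2 and 1.35 without IgG replicate 1, and with those 2 groups alone its adjusted p was 0.101. Phc2 was 0.50 ± 0.24 (adjusted p = 0.306) for IGF2BP1 RIP over input and -0.54 ± 0.23 (adjusted p = 0.198) for IGF2BP1 RIP over IgG RIP.

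Among the subunits of Polycomb repressive complex 2, Suz12 (ENSMUSG00000017548, chromosome 11, 79993106 to 80034123) encodes the scaffold, and it stood at 173 and 192 CPM with the IGF2BP1 antibody, 230.1 and 219 CPM with IgG and 274 and 265 CPM in the input libraries. Both IGF2BP1 libraries were the lowest and both input libraries the highest. Suz12 was lower in IGF2BP1 RIP than in input at -0.56 ± 0.10 (adjusted p = 0.0243). Its difference was -0.30 ± 0.10 (adjusted p = 0.127) in IGF2BP1 RIP over IgG RIP and -0.26 ± 0.10 (adjusted p = 0.157) in IgG RIP over input. Ezh2 (ENSMUSG00000029687, chromosome 6, 47530274 to 47597527), the catalytic subunit, stood at 62.2 and 62.9 CPM after IGF2BP1 precipitation, against 28.3 and 47.8 CPM after IgG precipitation and 80.0 and 69.3 CPM before either. IgG RIP was lowest and input highest, but none of its comparisons passed. IGF2BP1 RIP was 0.71 ± 0.27 (adjusted p = 0.153) over IgG RIP and -0.25 ± 0.26 (adjusted p = 0.674) over input. Ezh2 in IgG RIP over input was -0.97 ± 0.27 (adjusted p = 0.0692). The 7 Polycomb genes called nowhere, Ezh2 among them, spanned -0.21 to 0.81 over IgG RIP and -0.64 to 1.11 over input in IGF2BP1 RIP. IgG RIP over input spanned -0.97 to 0.51 in them.

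Of the 8 demethylases, Kdm5a was lower with the IGF2BP1 antibody than with IgG, Kdm6b was higher than input in IGF2BP1 RIP, and both were higher than input in IgG RIP. Over IgG RIP 12.5% of the group were lower, against 6.49% of genes of like length and level. Over input, 12.5% were higher in IGF2BP1 RIP and 25% in IgG RIP, against 6.14% and 9.92% of like genes. Kdm5a (ENSMUSG00000030180, chromosome 6, 120324322 to 120444574), which removes the methyl marks of active promoters and shares its locus span with another gene, stood at 336 and 344 CPM in the IGF2BP1 libraries, against 534 and 524 CPM in the IgG libraries and 418 and 399 CPM in input. Both IGF2BP1 libraries were the lowest and both IgG libraries the highest. Kdm5a was -0.64 ± 0.08 (adjusted p = 0.00654) in IGF2BP1 RIP over IgG RIP and -0.26 ± 0.08 (adjusted p = 0.110) over input. Kdm5a in IgG RIP over input was 0.37 ± 0.08 (adjusted p = 0.0323). Kdm6b (ENSMUSG00000018476, chromosome 11, 69398508 to 69413675), which takes off the Polycomb methyl mark, stood at 685 and 657 CPM with the IGF2BP1 antibody, 695 and 696 CPM with IgG and 433 and 417 CPM in the input libraries. The 4 precipitated libraries lay close together and above input. Over input, Kdm6b was higher by 0.66 ± 0.07 (adjusted p = 0.00495) in IGF2BP1 RIP and 0.71 ± 0.07 (adjusted p = 0.00431) in IgG RIP. Its difference between precipitates was -0.05 ± 0.07 (adjusted p = 0.714). Kdm1a (ENSMUSG00000036940, chromosome 4, 136469761 to 136602723), the LSD1 demethylase of corepressor complexes, shares its span as well and stood at 243 and 236 CPM after IGF2BP1 precipitation, against 252 and 222 CPM after IgG precipitation and 211 and 193 CPM before either. The precipitates overlapped, and no comparison of Kdm1a passed. Its values were 0.02 ± 0.11 (adjusted p = 0.948) in IGF2BP1 RIP over IgG RIP and 0.25 ± 0.11 (adjusted p = 0.270) over input. Kdm1a in IgG RIP over input was 0.23 ± 0.11 (adjusted p = 0.240). The 6 demethylases called nowhere lay between -0.83 and 0.10 over IgG RIP and between -0.05 and 0.51 over input in IGF2BP1 RIP. IgG RIP over input spanned -0.01 to 1.34 in them.

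Of the 14 remodellers, 4 were higher in IGF2BP1 RIP than in input and 3 were higher in IgG RIP than in input, while Chd1 alone was lower with the IGF2BP1 antibody than with IgG. The higher shares were 28.6% in IGF2BP1 RIP and 21.4% in IgG RIP. Genes of like length and level had 7.64% and 14.7%. Chd1 made up 7.14% of the group, below the 9.40% of like genes lower than IgG RIP. Smarca4 (ENSMUSG00000032187, chromosome 9, 21616169 to 21704230), the BRG1 ATPase of the BAF complexes, stood at 932 and 945 CPM in the IGF2BP1 libraries, against 909 and 917 CPM in the IgG libraries and 628 and 639 CPM in input. Arid1a (ENSMUSG00000007880, chromosome 4, 133679008 to 133756769), the DNA-binding subunit that defines canonical BAF, stood at 784 and 826 CPM with the IGF2BP1 antibody, 851 and 909 CPM with IgG and 464 and 483 CPM in the input libraries. In both genes the 4 precipitated libraries lay together above input. Over input, Smarca4 was 0.57 ± 0.07 (adjusted p = 0.00539) in IGF2BP1 RIP and 0.53 ± 0.07 (adjusted p = 0.00738) in IgG RIP. Arid1a was 0.76 ± 0.08 (adjusted p = 0.00310) and 0.89 ± 0.08 (adjusted p = 0.00302) in the same comparisons. Between the precipitates, Smarca4 was at 0.04 ± 0.07 (adjusted p = 0.756) and Arid1a at -0.13 ± 0.08 (adjusted p = 0.339). Arid2 (ENSMUSG00000033237, chromosome 15, 96287518 to 96405518), which defines the PBAF form of the complex, stood at 297 and 292 CPM after IGF2BP1 precipitation, against 260.0 and 198 CPM after IgG precipitation and 164 and 152 CPM before either. Its IGF2BP1 libraries lay above its IgG libraries and these above input. Over input, Arid2 was 0.90 ± 0.14 (adjusted p = 0.0157) in IGF2BP1 RIP and 0.54 ± 0.15 (adjusted p = 0.0634) in IgG RIP. Between the precipitates it was 0.37 ± 0.14 (adjusted p = 0.159).

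Chd4 (ENSMUSG00000063870, chromosome 6, 125095981 to 125130591), the ATPase of the NuRD deacetylase complex, stood at 782 and 729.9 CPM in the IGF2BP1 libraries, against 492 and 609 CPM in the IgG libraries and 471 and 544 CPM in input. Its IGF2BP1 libraries were the highest, and its IgG libraries overlapped input. It was higher in IGF2BP1 RIP than in input by 0.57 ± 0.12 (adjusted p = 0.0405). Chd4 was 0.46 ± 0.12 (adjusted p = 0.0676) over IgG RIP, and IgG RIP over input was 0.12 ± 0.12 (adjusted p = 0.601). Smarcc1 (ENSMUSG00000032481, chromosome 9, 110132037 to 110240178), a BAF core subunit, stood at 668 and 676 CPM with the IGF2BP1 antibody, 708 and 671 CPM with IgG and 533 and 550.2 CPM in the input libraries. The precipitates overlapped above input, and IgG RIP over input passed at 0.35 ± 0.07 (adjusted p = 0.0320). IGF2BP1 RIP of Smarcc1 over input was 0.31 ± 0.07 (adjusted p = 0.0561) and IGF2BP1 RIP over IgG RIP -0.04 ± 0.07 (adjusted p = 0.808). Chd1 (ENSMUSG00000023852, chromosome 17, 15704967 to 15772610), a remodeller of transcribed genes, stood at 83.2 and 81.9 CPM after IGF2BP1 precipitation, against 144 and 129.7 CPM after IgG precipitation and 112 and 104 CPM before either. Its IGF2BP1 libraries were the lowest and its IgG libraries the highest. Chd1 was -0.73 ± 0.14 (adjusted p = 0.0258) over IgG RIP and -0.39 ± 0.14 (adjusted p = 0.171) over input. Chd1 in IgG RIP over input was 0.34 ± 0.14 (adjusted p = 0.168). With IGF2BP1 RIP and IgG RIP alone in the model the difference of Chd1 had an adjusted p of 0.104. The 8 remodellers called nowhere lay between -0.68 and 0.29 over IgG RIP and between -0.38 and 0.35 over input in IGF2BP1 RIP. IgG RIP over input spanned -0.25 to 0.87 in them.

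Of the 10 genes of acetylase and deacetylase complexes, Sap130 was higher in IGF2BP1 RIP than in IgG RIP, and Ep300, Sin3a and Sap130 were higher than input in both precipitates. Sap130 made up 10% of the group, near the 8.90% of genes of like length and level higher over IgG RIP. Higher than input were 30% of the group in each precipitate. Like genes had 6.64% in IGF2BP1 RIP and 8.94% in IgG RIP. Sap130 (ENSMUSG00000024260, chromosome 18, 31634371 to 31723061) encodes a subunit of the SIN3 and histone deacetylase corepressor. It stood at 386 and 373 CPM in the IGF2BP1 libraries, against 225 and 179 CPM in the IgG libraries and 135 and 129 CPM in input. The groups were fully separated, with both IGF2BP1 libraries far above both IgG libraries and these above input. Sap130 was higher in IGF2BP1 RIP by 0.91 ± 0.13 (adjusted p = 0.00970) over IgG RIP and 1.53 ± 0.13 (adjusted p = 0.00209) over input. For Sap130, IgG RIP over input was 0.62 ± 0.13 (adjusted p = 0.0330). Its log2 fold change in IGF2BP1 RIP over input was the largest of the 58 members, at the 99.3 percentile of other genes of its length class. A high percentile is likely for a gene picked out as the largest, so it is a description and not a test. Over IgG RIP it was 1.09 without IgG replicate 1 and 0.76 without IgG replicate 2, and with those 2 groups alone its adjusted p was 0.0563. Sin3a (ENSMUSG00000042557, chromosome 9, 57072040 to 57142722), the scaffold of the same complex, shares its span with another gene and stood at 660.5 and 696 CPM with the IGF2BP1 antibody, 532 and 587 CPM with IgG and 430.4 and 442 CPM in the input libraries. The groups were separated in the same order as for Sap130. Sin3a was 0.64 ± 0.08 (adjusted p = 0.00808) in IGF2BP1 RIP and 0.36 ± 0.08 (adjusted p = 0.0426) in IgG RIP over input. Between the precipitates it was 0.28 ± 0.08 (adjusted p = 0.0924).

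Ep300 (ENSMUSG00000055024, chromosome 15, 81586214 to 81652077) and Crebbp (ENSMUSG00000022521, chromosome 16, 4084048 to 4213404) encode the paired acetyltransferases of active enhancers. Ep300 stood at 585 and 601 CPM after IGF2BP1 precipitation, against 679 and 595 CPM after IgG precipitation and 379 and 395 CPM before either. Crebbp stood at 1113 and 1182 CPM in the IGF2BP1 libraries, against 958 and 1365 CPM in the IgG libraries and 820.5 and 852 CPM in input. For both the precipitates overlapped each other and lay above input. Ep300 was higher than input in IGF2BP1 RIP by 0.62 ± 0.09 (adjusted p = 0.0120) and in IgG RIP by 0.72 ± 0.09 (adjusted p = 0.00748). Crebbp did not pass, at 0.46 ± 0.15 (adjusted p = 0.132) and 0.47 ± 0.15 (adjusted p = 0.0949) over input. Between the precipitates, Ep300 was at -0.10 ± 0.09 (adjusted p = 0.527) and Crebbp at -0.02 ± 0.15 (adjusted p = 0.958). Hdac1 (ENSMUSG00000028800, chromosome 4, 129516104 to 129542713), a deacetylase of the SIN3 and NuRD complexes, stood at 98.5 and 93.9 CPM with the IGF2BP1 antibody, 75.3 and 44.9 CPM with IgG and 97.4 and 88.8 CPM in the input libraries. Both IgG libraries were the lowest and the IGF2BP1 libraries overlapped input. Hdac1 was not called, at 0.68 ± 0.24 (adjusted p = 0.141) over IgG RIP and 0.05 ± 0.24 (adjusted p = 0.948) over input. Hdac1 in IgG RIP over input was -0.63 ± 0.25 (adjusted p = 0.161). The 7 genes of this group called nowhere, Crebbp and Hdac1 among them, lay between -0.30 and 0.68 over IgG RIP and between -0.15 and 0.46 over input in IGF2BP1 RIP. IgG RIP over input spanned -0.63 to 0.47 in them.

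**Figure D3:**
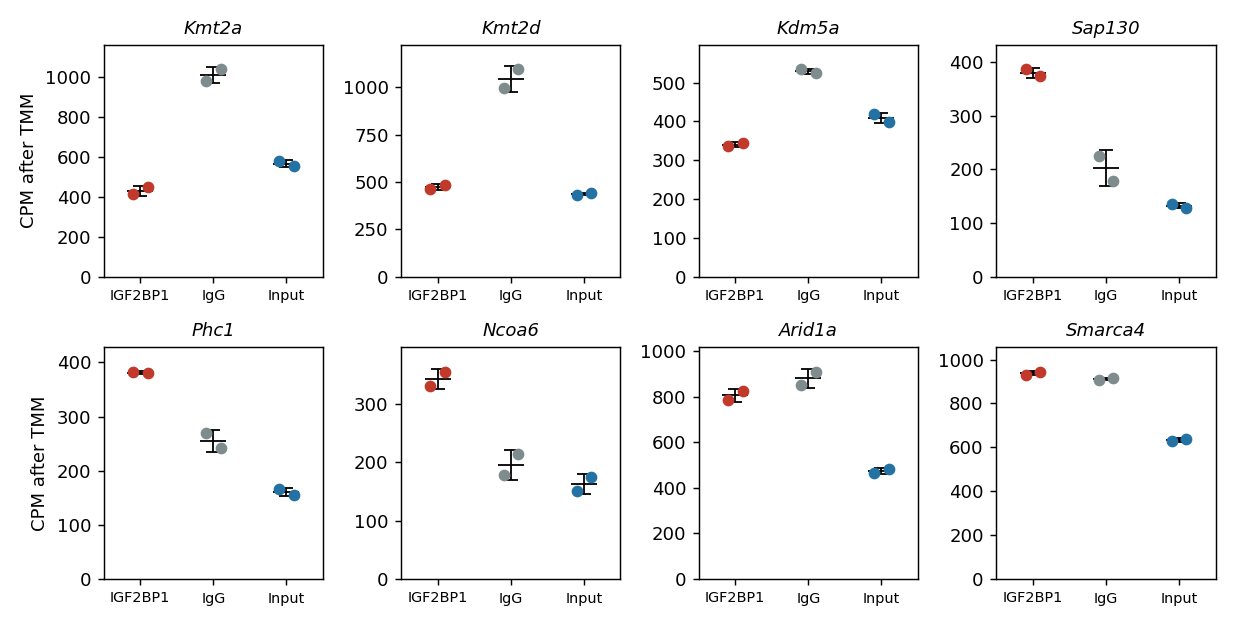
Level of 8 members in CPM after TMM in IGF2BP1 RIP, IgG RIP and input (points are libraries, bars the mean ± SD of 2 libraries, axes start at 0). Kmt2a, Kmt2d and Kdm5a are highest in IgG RIP, Sap130, Phc1 and Ncoa6 in IGF2BP1 RIP, and Arid1a and Smarca4 lie close together in both precipitates and lower in input.

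Many of the members are long transcripts, so they were set against genes of like length. The length index of a gene is its deposited count over its deposited FPKM, which gauges the transcript length behind the authors' values. All tested genes with an index were split by it into 10 classes. The index of the members ran from 3.07 to 65.8 with a median of 14.9, against 8.63 for all genes tested, and 20 of the 58 fell in the longest class. Of these 20 long members, 5 were lower and 0 higher by edgeR over IgG RIP (median -0.13). Of the 1185 other genes of the class, 10.5% were lower and 1.18% higher (median -0.23). The 5 long members called lower are Kmt2a, Kmt2c, Kmt2d, Setd1b and Nsd1, the 5 methyltransferases among the 7 members called lower. In IgG RIP over input, 11 of the 20 were higher (median 0.61), against 13.5% of the other genes higher and 2.45% lower (median 0.23). In IGF2BP1 RIP over input, 6 of the 20 were higher and 1 lower (median 0.36), against 2.95% higher and 6.16% lower of the other genes (median 0.02). The 38 members outside the longest class had medians of -0.001 over IgG RIP and 0.23 over input in IGF2BP1 RIP, and of 0.26 over input in IgG RIP. Of all 58 members, 33 lay above and 25 below the median of the other genes of their own class over IgG RIP. Over input these counts were 41 and 17 in IGF2BP1 RIP, and 44 and 14 in IgG RIP. Across all classes, the medians of non-member genes in IgG RIP over input ran between -0.37 in the shortest class and 0.23 in the longest, and those in IGF2BP1 RIP over input between -0.53 in the shortest class and 0.11 in the fifth.

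**Figure D4:**
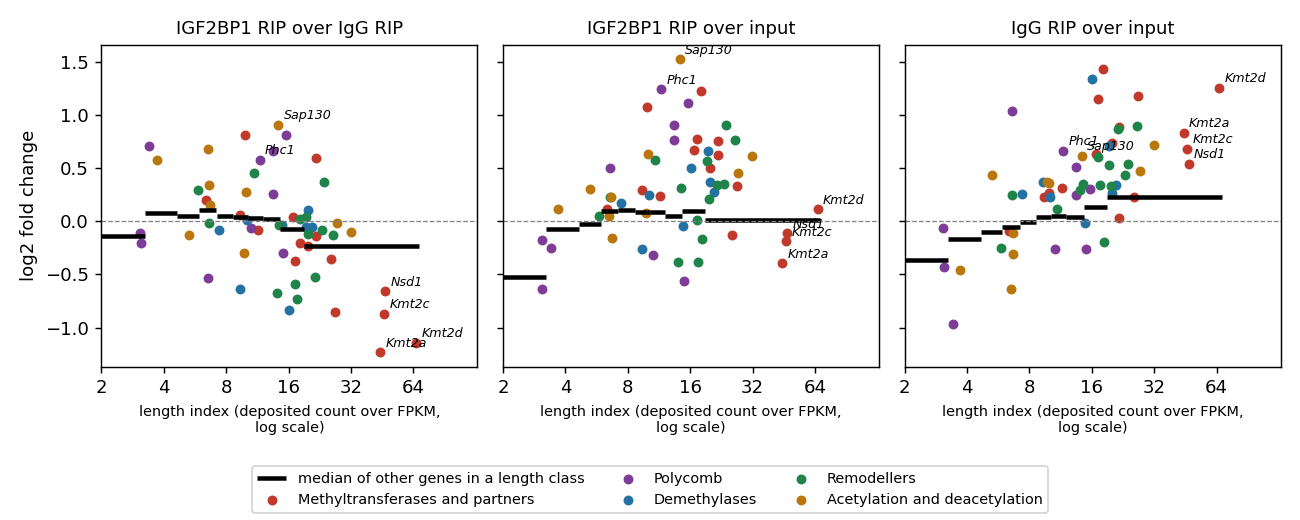
Log2 fold change of each member (points, coloured by role group) against its length index on a log scale, in IGF2BP1 RIP over IgG RIP, IGF2BP1 RIP over input and IgG RIP over input, with the median of the other genes of each length class as a black bar (the shortest class is drawn from an index of 2). The members with the largest index, Kmt2a, Kmt2c, Kmt2d and Nsd1, lie below the median of the longest class in the first panel and above it in the third.

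A fit with a length trend removed from each library (length offset) called 4 members higher and 4 lower over IgG RIP, against 2.46% and 2.71% of all genes, with a median of 0.00. The 3 higher members remained called, at 0.92 for Sap130, 0.75 for Ncoa6 and 0.54 for Phc1, and Kmt2e, a catalytically inactive KMT2 relative that shares its locus span with another gene and is named after its values were seen, joined them at 0.75. Of the 7 lower members, 4 remained called: Kmt2a at -0.68, Kmt2d at -0.35, Kdm5a at -0.70 and Chd1 at -0.65. Setd1b, Kmt2c and Nsd1 stood at -0.59, -0.29 and -0.07 and were no longer called, and the log2 fold change of 6 of the 7 shrank. With the offset and both precipitates alone in the edgeR model, 0 of the 58 members were called, against calls of 0.124% of all genes higher and 0.348% lower. At an unadjusted p under 0.05, 7 were higher and 9 lower, against 8.28% and 8.87%. Against input the offset left 13 of the 14 higher members called in IGF2BP1 RIP (all but Chd4) among 14 higher and 1 lower in all, against 1.62% and 2.62% of all genes, with a median of 0.27. Kmt2a, lower than input without the offset, stood at -0.26 with it (adjusted p = 0.122). In IgG RIP it left 14 of 20, against 3.09% of all genes higher and 3.80% lower, with a median of 0.26. Over input in IgG RIP, Kmt2a stood at 0.42, Kmt2d at 0.70 and Ep300 at 0.42 with the offset and remained called. Kmt2c stood at 0.25 (adjusted p = 0.153) and Nsd1 at 0.11 (adjusted p = 0.487) and were no longer called, as were Setdb1, Smarcc1, Sin3a and Sap130.

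**Figure D5:**
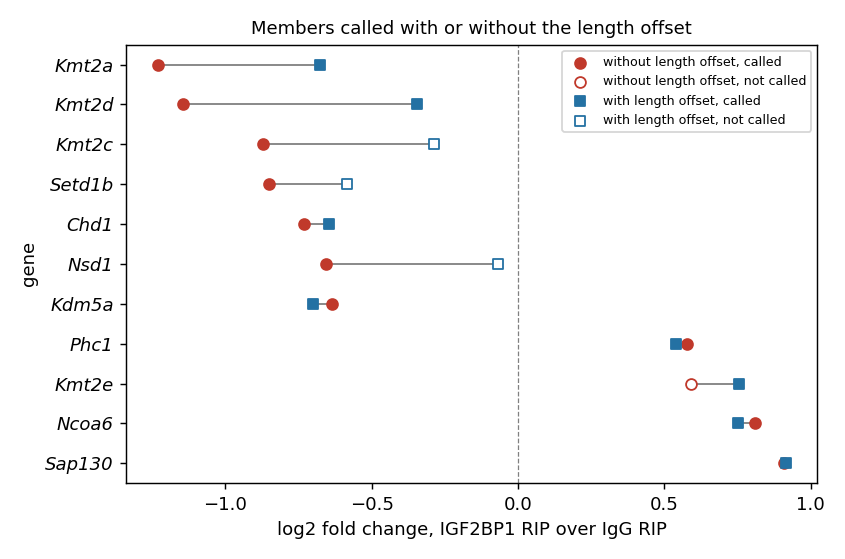
Log2 fold change in IGF2BP1 RIP over IgG RIP for the 11 members called with or without the length offset (circles without and squares with the offset, filled where the edgeR adjusted p was under 0.05). Kmt2a, Kmt2c, Kmt2d and Nsd1 move toward 0 with the offset, while Sap130, Phc1, Ncoa6 and Kdm5a move little.

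Length and level were also matched together, by setting each member against the other genes of its class among 25 joint classes of length index and mean level. In IGF2BP1 RIP over IgG RIP, 5.17% of the members were higher and 12.1% lower, against 5.96% and 8.67% of such genes, averaged over the members' classes. In IGF2BP1 RIP over input, 24.1% of the members were higher and 3.45% lower, against 6.75% and 7.74% of such genes. The median log2 fold change of the members was 0.29. Each member's class also has a median over its other genes, and the median of these over the members was 0.11. In IgG RIP over input, 34.5% of the members were higher, against 12.5% of such genes. The median of the members was 0.35 there, and the median of their class medians was 0.14. These shares describe the list and were not tested. Leaving out the 11 members that share a locus span with another gene gave 3 higher and 5 lower of 47 over IgG RIP. These are 6.38% and 10.6%, against 5.44% and 8.63% of genes of like length and level. Over input in IGF2BP1 RIP, 11 were higher and 2 lower (23.4% and 4.26%, against 6.44% and 7.38%). Over input in IgG RIP, 15 were higher (31.9%, against 12.4%).

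Per length, on the scale of the authors' FPKM, the levels in input spanned more than an order of magnitude. The highest were Hdac2, a class I deacetylase, at 88.3 and 84.2 FPKM, Bmi1, a Polycomb ring finger protein, at 95.7 and 74.8 FPKM, Chd4 at 71.8 and 81.9 FPKM, and Kdm5a at 71.3 and 72.7 FPKM. The libraries of Hdac2 and Bmi1 overlapped, as did those of Bmi1 and Chd4 and those of Chd4 and Kdm5a. The lowest were Kdm5c, an X-linked relative of Kdm5a, at a mean of 2.55 FPKM, and Phc3, the third polyhomeotic gene, at 2.61 and 2.44 FPKM, which lay within the range of Kdm5c. The long Kmt2a and Kmt2d, among the members with the most fragments, averaged 20.6 and 12.0 FPKM in input and held ranks 30 and 40 of 58.

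A wider list of 120 further chromatin genes, of which 118 had a single line and 113 passed the filter, had 7 called higher and 11 lower over IgG RIP in IGF2BP1 RIP (median -0.03). That is 6.19% and 9.73% of the 113, against 3.29% and 3.78% of all genes and 4.89% and 6.31% of genes of like length and level. In IGF2BP1 RIP against input 5 were higher and 5 lower (median 0.16), or 4.42% each, against 2.21% and 3.76% of all genes and 4.84% and 5.89% of like genes. In IgG RIP against input 11 were higher and 2 lower (median 0.17), or 9.73% and 1.77%, against 4.19% and 4.90% of all genes and 8.72% and 6.74% of like genes. Its 17 methyltransferase genes had 2 higher and 3 lower over IgG RIP (11.8% and 17.6%, against 5.44% and 6.22% of like genes). Of the same 17, 1 was higher and 0 lower in IgG RIP over input (5.88% and 0%, against 8.55% and 7.52%). The largest higher calls over IgG RIP were Sirt6, a deacetylase of telomeric chromatin, at 1.82 ± 0.39 (adjusted p = 0.0378), and Prmt5, an arginine methyltransferase, at 1.10 ± 0.25 (adjusted p = 0.0459). On the lower side they were Setd7, a lysine methyltransferase, at -1.23 ± 0.18 (adjusted p = 0.0114), and Baz1a, a subunit of ISWI remodellers, at -1.16 ± 0.24 (adjusted p = 0.0335). With both precipitates alone in the edgeR model, 1 of the 113 was higher and 2 lower, against 0.315% and 0.880% of all genes. There the adjusted p was 0.133 for Sirt6, 0.120 for Prmt5, 0.0625 for Setd7 and 0.124 for Baz1a, so none of them passed. The higher 1 was Chd9, a remodeller named after its values were seen. It stood at 33.4 and 31.8 CPM in the IGF2BP1 libraries, 0 and 0 CPM in the IgG libraries and 0 and 33.2 CPM in input. With all 3 groups in the edgeR model Chd9 did not pass over IgG RIP (adjusted p = 0.0770). Sirt6 stood at 20.6 and 24.0 CPM in the IGF2BP1 libraries, 5.43 and 7.10 CPM in the IgG libraries and 16.7 and 14.8 CPM in input. Setd7 stood at 55.1 and 60.0 CPM after IGF2BP1 precipitation, against 118 and 153 CPM after IgG precipitation and 84.3 and 75.8 CPM before either, so that both IgG libraries were the highest and both IGF2BP1 libraries the lowest. In IGF2BP1 RIP over input, Hdac7 was at 0.81 ± 0.13 (adjusted p = 0.0160) and the demethylase Kdm3b at 0.59 ± 0.10 (adjusted p = 0.0213). The lower side held -0.96 ± 0.17 (adjusted p = 0.0220) for the remodeller Atrx and -0.95 ± 0.15 (adjusted p = 0.0160) for Sap18, a small SIN3 complex subunit. In IgG RIP over input, Trrap, the scaffold of acetylase complexes, was at 0.82 ± 0.11 (adjusted p = 0.00756). The lower calls were -0.72 ± 0.15 (adjusted p = 0.0292) for the methyl-DNA reader Mbd2 and -0.43 ± 0.07 (adjusted p = 0.0143) for the remodeller Hells. With IgG RIP and input alone in the edgeR model, 2 of the 113 were higher and 0 lower, against 0.888% and 0.946% of all genes. The adjusted p in that fit was 0.0332 for Trrap, 0.117 for Mbd2 and 0.0575 for Hells. Baz1a, Chd9, Hdac7 and Kdm3b share their span with another gene.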

How the data were processed

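RIP-seq libraries of 3 groups (IGF2BP1 RIP, IgG RIP and input, 2 libraries each) were grouped by their titles. The deposited table lists 22564 protein-coding genes, each with a count and an FPKM per library. The deposited counts are estimated counts of fragments multiplied by 1 factor per library: between 92.8% and 94.4% of values above 0 are whole multiples, within 0.01, of steps of 0.954 to 1.03. The steps were divided out and the results rounded. The other columns hold FPKM, per the file headers, and were not found to be scaled to depth. The tools FastQC and cutadapt 1.9.3, and the build mm39, come from the submitters' processing notes. No aligner or counter is named there. Gene numbers matched 20874 genes to GRCm38, and 99.909% of them overlap their GRCm38 position, so coordinates are printed as GRCm38.

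The main test was edgeR's quasi-likelihood test (version 4.0.16, R 4.3.3) on the fragments after TMM scaling and filterByExpr. It had 3 group terms over 6 libraries, leaving 3 residual degrees of freedom, with Benjamini-Hochberg adjustment over 12053 genes and a threshold of 0.05. SE is the log2 fold change over the root of the F statistic. The code was tested on simulated counts that had the same spread in every group. The groups here differ in spread, so that test cannot show how the calls behave in these data. The length index is the median over libraries with at least 10 fragments of deposited count over FPKM. The length offset is a lowess trend per library on the log2 of that index. It was fitted to each gene's log2 CPM minus its mean log2 CPM over the libraries. Alternatives were each comparison's 2 groups alone, a replicate block, DESeq2 1.42.0, voom (limma 3.58.1), upper quartile scaling, no filter, a filter of 50 fragments, log2(FPKM + 1) with and without centring, leaving out each library and, chosen after seeing the data, the length offset with 2 groups alone.

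The members and lists were chosen with earlier results of these data known. Values per library are given for members called in any comparison (at most the 6 with the largest change per role), the member with the highest mean level per role, and Ezh2, Kdm1a, Smarca4, Ep300 and Hdac1. Further chromatin genes are named for up to 2 called with the largest change per direction and comparison, and 1 that this names is not reported here.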

Additional observations from a re-analysis of the deposited data

How the results depend on the processing

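The counts of members called changed with single libraries and with which groups shared an estimate of spread, and with 2 libraries per group and down to 21 fragments per member their precision is low. Leaving out 1 library at a time, members higher over IgG RIP in IGF2BP1 RIP numbered 0 to 13 and lower 2 to 19, with medians from -0.070 to 0.021. For IGF2BP1 RIP over input the ranges were 0 to 30 higher, 0 to 8 lower and medians from 0.23 to 0.33, and for IgG RIP over input 0 to 35 higher, 0 to 5 lower and medians from 0.34 to 0.38. With each comparison's 2 groups alone, 0 members were higher than IgG RIP, 29 were higher and 8 lower than input in IGF2BP1 RIP, and 10 were higher than input in IgG RIP. Voom gave 29 higher and 8 lower in IGF2BP1 RIP over input. The length offset left 4 lower than IgG RIP (median 0.0021), 1 lower than input in IGF2BP1 RIP, and a median of 0.26 in IgG RIP over input. With the offset and 2 groups alone, 0 were higher and 0 lower than IgG RIP (median 0.0040), 28 higher and 8 lower than input in IGF2BP1 RIP, and 3 higher in IgG RIP over input (median 0.26). Without a filter 1 member was lower than input in IGF2BP1 RIP, and with the filter of 50 fragments 1 was lower than input in IgG RIP. Shares of all genes called are not given for either filter setting, so neither count sets the members apart from other genes.

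The authors' FPKM are not scaled to depth and move the median of all genes by 0.11, 0.68 and 0.56. With FPKM, 2 members were higher and 1 lower than IgG RIP (median 0.070). On that scale 42 were higher and 0 lower than input in IGF2BP1 RIP (median 0.97), and 39 higher in IgG RIP over input (median 1.09). Centred, FPKM gave 1 higher and 1 lower than IgG RIP (median 0.031), 2 higher and 0 lower than input in IGF2BP1 RIP, and 4 higher in IgG RIP over input (median 0.40). Shares of all genes called are not given for either FPKM scale, so these counts do not set the members apart from other genes. The causes were not tested beyond the construction of each alternative.

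Replicate numbers did not pair the libraries: deviations of same-numbered libraries correlated across genes at -0.0039 between IGF2BP1 RIP and IgG RIP, 0.0024 between IGF2BP1 RIP and input, and 0.0095 between IgG RIP and input. With the replicate block, 3 members were higher and 7 lower than IgG RIP, 14 higher and 1 lower than input in IGF2BP1 RIP, and 17 higher in IgG RIP over input. Shares of all genes called are not given for the replicate block, so these counts do not set the members apart from other genes.

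The 25 genes with values given per library changed sign as follows (log2 fold changes). Other members named in the text changed sign too, these among them. With the length offset, Setd1a turned to 0.026 in IGF2BP1 RIP over IgG RIP, Nsd1 to 0.039 in IGF2BP1 RIP over input and Kmt2e to -0.15 in IgG RIP over input. Without IgG replicate 1, Bmi1 turned to 0.079 in IGF2BP1 RIP over IgG RIP. Without IgG replicate 2, Setdb1 turned to -0.068 and Kdm2b to 0.18 in that comparison, and Kdm2b to -0.0018 in IgG RIP over input. The list that follows is of the 25. With the offset and 2 groups alone these turned: Kdm1a to -0.037, Kdm6b to 0.068, Arid1a to 0.12, Ep300 to 0.26, Crebbp to 0.26 in IGF2BP1 RIP over IgG RIP. On FPKM these turned: Kdm6b to 0.28, Arid1a to 0.096, Smarcc1 to 0.14, Ep300 to 0.048, Crebbp to 0.15, Sin3a to -0.061 in IGF2BP1 RIP over IgG RIP, and Kmt2a to 0.29, Kmt2c to 0.65, Ezh2 to 0.53, Suz12 to 0.21, Kdm5a to 0.50, Chd1 to 0.50 in IGF2BP1 RIP over input, and Ezh2 to 0.15, Suz12 to 0.90 in IgG RIP over input. On centred FPKM these turned: Kdm6b to 0.24, Arid1a to 0.058, Smarcc1 to 0.10, Ep300 to 0.0096, Crebbp to 0.11, Sin3a to -0.099 in IGF2BP1 RIP over IgG RIP, and Ncoa6 to -0.062, Suz12 to 0.21 in IgG RIP over input. With the length offset these turned: Kdm1a to -0.040, Kdm6b to 0.070, Arid1a to 0.12, Ep300 to 0.26, Crebbp to 0.26 in IGF2BP1 RIP over IgG RIP. Without a filter these turned: Crebbp to 0.0071 in IGF2BP1 RIP over IgG RIP. With the filter of 50 fragments these turned: Kdm1a to -0.0069 in IGF2BP1 RIP over IgG RIP. Leaving out 1 library at a time, Paxip1 ran from -0.42 to 0.070, Kdm1a ran from -0.061 to 0.12, Smarcc1 ran from -0.064 to 0.014, Ep300 ran from -0.18 to 0.0059, Crebbp ran from -0.24 to 0.27 in IGF2BP1 RIP over IgG RIP. Hdac1 ran from -0.0023 to 0.12 in IGF2BP1 RIP over input. Chd4 ran from -0.050 to 0.26 in IgG RIP over input.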

Other observations

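The deposited count over FPKM of a gene, which is constant across libraries up to a factor per library if 1 length is used, differed more than 1.5-fold between libraries in 25 of the 58 members (43.1%, against 30.6% of all genes tested). Picked out after the values were seen, Kdm2b, a demethylase that brings Polycomb to unmethylated promoters and whose gene shares its locus span with another, had ratios of 7.62 and 8.40 in the IGF2BP1 libraries, beside 4.41 and 4.74 in the IgG libraries and 7.92 and 7.14 in input. Its IgG libraries lay below all others. Sin3a had the widest spread of the members, 2.76-fold, with ratios of 10.2 and 9.66 after IGF2BP1 precipitation, 9.33 and 5.44 after IgG precipitation and 15.0 and 12.8 without either.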
